A study of Homo sapiens with 8 samples.

Results

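The regions described here are the NUP98-binding regions of human embryonic stem cells (ESCs) and neural progenitor cells (NeuPCs) that lie on chromosomes 4, 13 and 18, more than 5 Mb from both ends of the chromosome. They were chosen by position alone, in the human genome build hg19. Of the 2499 regions of the ESC list 230 met this rule, with 101 on chromosome 4, 76 on chromosome 13 and 53 on chromosome 18. Of the 3205 regions of the NeuPC list 349 met it, with 168, 99 and 82 on the same chromosomes. All other autosomes, with the same margin at their ends, held 1866 ESC regions and 2421 NeuPC regions and served as the comparison.

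NUP98 is a component of the nuclear pore complex, the channel through which proteins and RNA pass the nuclear envelope. It is mobile, moves on and off the pores, and is also found on chromatin in the nuclear interior. Chromosomes do not lie at random in the nucleus: gene-poor chromosomes such as chromosome 18 tend to lie near the nuclear envelope and its lamina, whereas gene-rich chromosomes such as chromosome 19 tend to lie inside. The regions on the gene-poor chromosomes therefore allow one to ask how densely NUP98 regions are listed on chromosomes that are often close to the pores, and whether that differs between stem cells and progenitors.

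The study compared NUP98 binding between cell types by ChIP-Seq, in which crosslinked DNA is pulled down with an antibody and sequenced. ESCs were of the line HUES6, and NeuPCs had been differentiated from ESCs in culture. Both were fixed in 1% formaldehyde for 10 min and precipitated with the polyclonal antibody NUP98Ab1 (catalogue number 2292), with normal rabbit IgG (catalogue number 2729) as control. The series also held neurons and IMR90 lung fibroblasts, which were not analysed here. Each list came from 1 library, so no value below has an error from replicates, and no p-value is given. The intervals are 95% intervals of counting error only. Each region carries a score from the authors' peak caller, with no unit stated, and read depth was not used here, so how many regions were listed was not separated from sequencing depth and calling threshold.

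The gene-poor label was checked against protein-coding genes per Mb, counted between the first and the last gene of each chromosome in the RefSeq annotation of GRCh38.p14. Chromosome 13 had 2.96 coding genes per Mb, chromosome 18 had 3.37 and chromosome 4 had 4.05, the lowest 3 values among the 22 autosomes. The other 19 autosomes ranged from 4.93 on chromosome 8 to 24.8 on chromosome 19. The position of these chromosomes in the nuclei of ESCs or NeuPCs was not measured, so the gene content of the label was checked and its nuclear position was not.

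The 5 Mb margin removed 39 of the 269 ESC regions on the chromosomes (14.5%) and 29 of the 378 NeuPC regions (7.67%). On the other autosomes the same margin removed 10.5% and 8.61%. The region just inside the margin lay 5.05 Mb from the end in the ESC list and 5.09 Mb in the NeuPC list, and the nearest regions outside it lay at 4.73 Mb and 4.99 Mb.

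NUP98 regions were sparser on these chromosomes in ESCs, and the difference was carried by chromosome 4. The ESC list held 0.688 regions per Mb of sequenced length on chromosomes 4, 13 and 18 together (exact Poisson interval 0.602 to 0.783, 230 regions in 334 Mb). The other autosomes held 0.859 per Mb (0.820 to 0.899). The ratio was 0.801, and its exact conditional interval, 0.695 to 0.919, did not include 1. That interval does not cover the spread between autosomes. Single other autosomes ranged from 0.649 on chromosome 3 to 1.26 on chromosome 22, and the pooled 0.688 lay inside that range.

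Chromosome 4 had 0.567 ESC regions per Mb (0.462 to 0.689), the lowest value of the 22 autosomes, and its ratio to the other autosomes was 0.660 (0.535 to 0.807). The next lowest value was 0.649, on chromosome 3, and lies within the interval of chromosome 4. Chromosome 13 had 0.834 per Mb (0.657 to 1.04) and chromosome 18 had 0.814 (0.610 to 1.07), which gave them ranks 10 and 9 of 22 from the lowest. Both were close to the pooled rate of the other autosomes, with ratios of 0.971 (0.762 to 1.22) and 0.948 (0.708 to 1.25). Without chromosome 4 the pooled ratio was 0.962 (0.798 to 1.15). The chromosomes with the fewest genes per Mb, 13 and 18, thus stood near the middle of the order of ESC rates.

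In NeuPCs the rate on these chromosomes was 1.04 per Mb (0.937 to 1.16) against 1.11 per Mb (1.07 to 1.16) on the other autosomes. The ratio of 0.937 had an interval of 0.835 to 1.05, so a difference was not detectable from these counts. The individual chromosomes did not behave alike. Chromosome 4 had 0.943 regions per Mb (0.806 to 1.10), rank 3 from the lowest, with a ratio of 0.846 (0.720 to 0.990). Chromosome 13 had 1.09 (0.883 to 1.32), in the middle of the order, with a ratio of 0.975 (0.789 to 1.19). Chromosome 18 had 1.26 (1.00 to 1.56), rank 19 from the lowest and so among the denser autosomes, with a ratio of 1.13 (0.896 to 1.41). Only chromosomes 17, 19 and 22, which are gene-rich, had higher NeuPC values than chromosome 18.

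**Figure D1:**
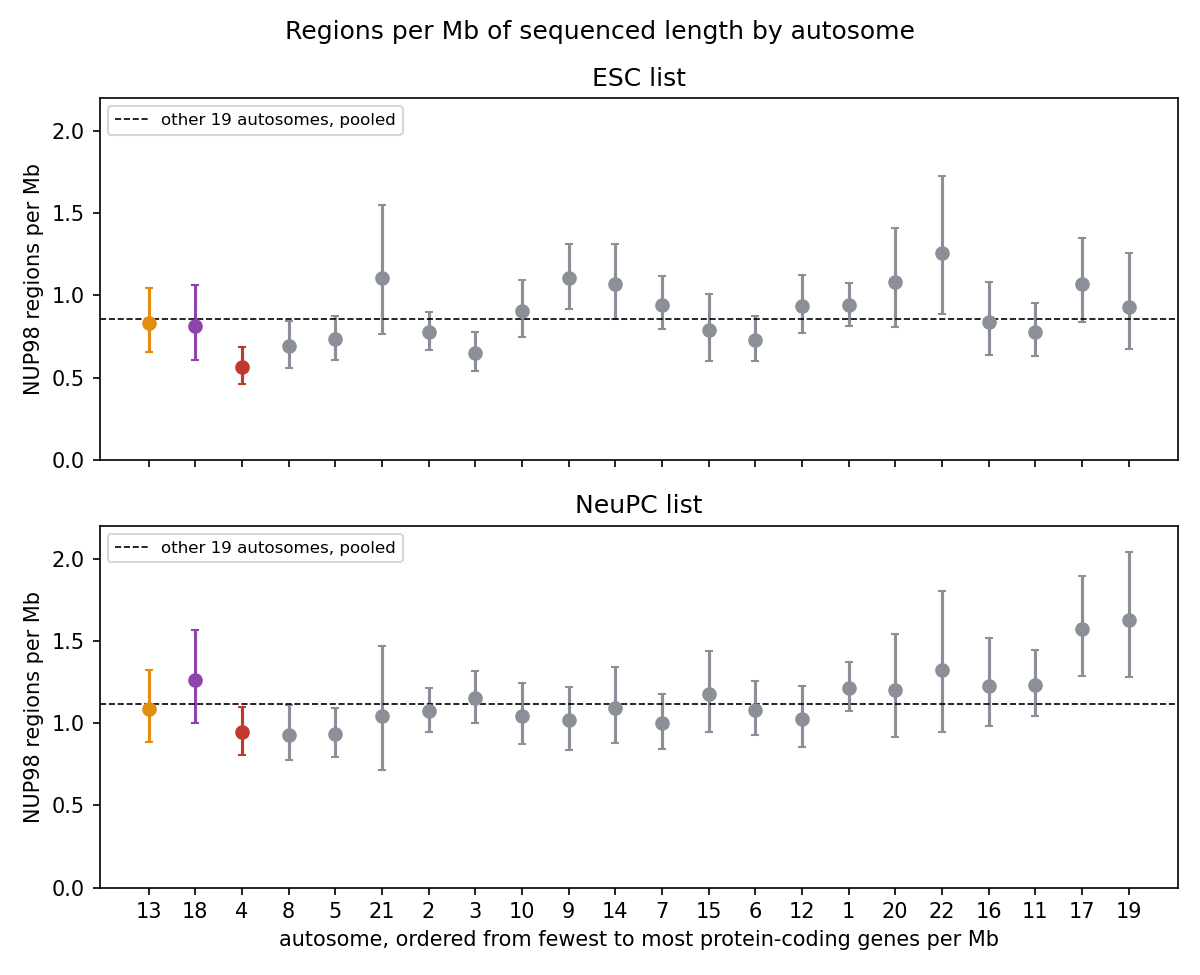
NUP98 regions per Mb of sequenced length (vertical axis) on each of the 22 autosomes, ordered from fewest to most protein-coding genes per Mb, in the ESC list (top) and the NeuPC list (bottom). Bars are exact 95% Poisson intervals and the dashed line is the pooled rate of the other 19 autosomes, 0.859 per Mb in ESCs and 1.11 in NeuPCs. Chromosome 4 (red) is the lowest point of the ESC panel at 0.567, while chromosome 13 (orange) lies near the line in both panels and chromosome 18 (purple) lies near it in ESCs and above it, at 1.26, in NeuPCs.

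Across the 22 autosomes, coding genes per Mb and NeuPC regions per Mb rose together, with a Pearson's r of 0.823 and a Spearman's rho of 0.637. This rested largely on the gene-rich chromosomes 16, 17, 19, 20 and 22, without which r was 0.323 and rho 0.309 (n = 17). In the ESC list r was 0.276 and rho 0.420, and without those chromosomes r was 0.188 and rho 0.270. These are descriptions across chromosomes that share 1 library per list and differ in base composition. Chromosome 18 had rank 2 from the lowest in gene density but rank 19 in NeuPC rate, at 1.26 per Mb. Its ratio to the other autosomes, 1.13 (0.896 to 1.41), had an interval that included 1. Its departure from a rise with gene density was not tested.

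Both arms of chromosome 4 were sparse in ESCs. The short arm held 26 ESC regions (0.582 per Mb, interval 0.380 to 0.853) and the long arm 75 (0.562 per Mb, 0.442 to 0.704). In NeuPCs the arms held 45 regions (1.01 per Mb) and 123 regions (0.921 per Mb). The short arm of chromosome 18, which is small, held 10 ESC regions (0.956 per Mb, 0.458 to 1.76) and 17 NeuPC regions (1.63 per Mb, 0.947 to 2.60), against 0.787 and 1.19 per Mb on its long arm. The intervals of the arms overlapped on both chromosomes. Chromosome 13 has its sequenced part on the long arm.

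The NeuPC list was longer than the ESC list on these chromosomes as elsewhere. There were 1.52 NeuPC regions for each ESC region (1.28 to 1.80), against 1.30 (1.22 to 1.38) on the other autosomes. Because list length depends on depth and threshold, the informative comparison is the ratio of these ratios, which was 1.17 with an interval of 0.976 to 1.40. A gain beyond that of the other autosomes was thus not detectable for the chromosomes together. Leaving out 1 chromosome at a time moved this ratio of ratios. Without chromosome 13 it was 1.25 (1.01 to 1.55), an interval just above 1. Without chromosome 4 it was 1.08 (0.851 to 1.38) and without chromosome 18 it was 1.16 (0.948 to 1.43), both with intervals that included 1.

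The ratio was 1.66 on chromosome 4 (1.29 to 2.15), 1.55 on chromosome 18 (1.08 to 2.23) and 1.30 on chromosome 13 (0.956 to 1.78). On the other autosomes it ranged from 0.920 on chromosome 9 to 1.78 on chromosome 3. Relative to the other autosomes together, the chromosomes gave 1.28 (0.988 to 1.67), 1.19 (0.829 to 1.73) and 1.00 (0.732 to 1.38) in the same order. None of these intervals excluded 1.

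**Figure D2:**
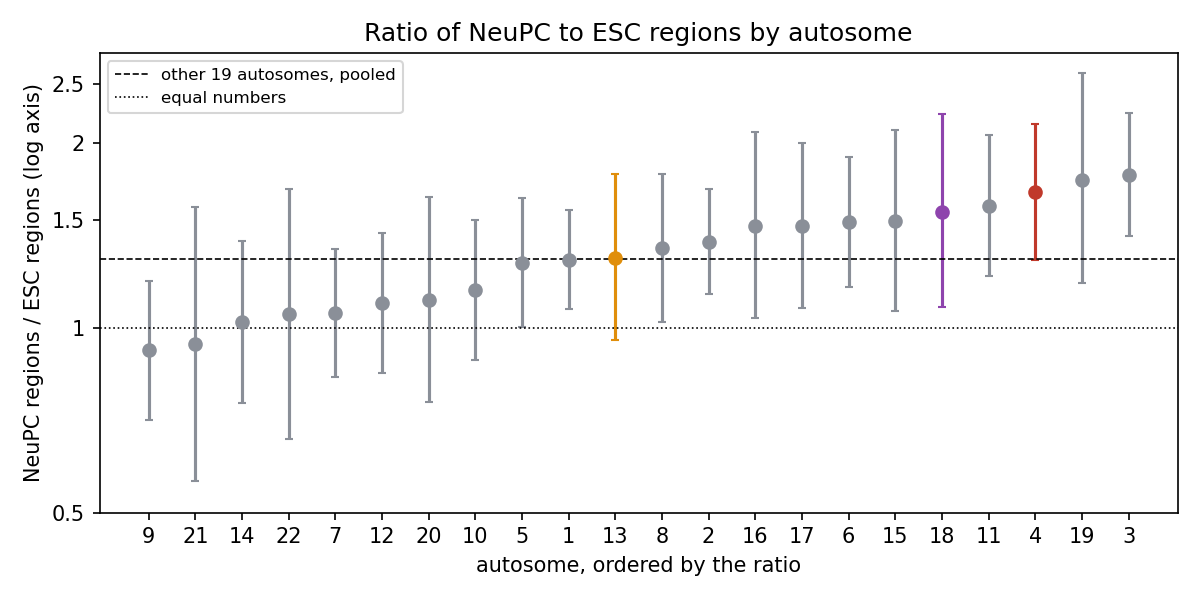
Number of NeuPC regions divided by the number of ESC regions on each autosome (log axis), ordered from lowest to highest, with 95% intervals. The dashed line is the ratio of the other 19 autosomes together, 1.30, and the dotted line marks equal numbers. Chromosome 13 (orange) lies on the dashed line, and chromosomes 18 (purple) and 4 (red) stand toward the high end at 1.55 and 1.66, with intervals that include the dashed line.

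The members were short in both lists and of ordinary length. The median length was 119.5 bp in ESCs (118 to 122) and 121 bp in NeuPCs (119 to 123), and on the other autosomes it was 121 bp in both lists. The middle 90% of ESC members ran from 91.5 to 155 bp, and of NeuPC members from 92 to 155 bp. The shortest and longest ESC members had 73 and 257 bp, and those of NeuPCs 57 and 191 bp. The longest regions elsewhere reached 4410 bp in the ESC list and 2148 bp in the NeuPC list. Regions over 200 bp numbered 2 of 230 in ESCs (0.870%, Wilson interval 0.239 to 3.11) against 30 of 1866 (1.61%, 1.13 to 2.29) on the other autosomes. In NeuPCs they numbered 0 of 349, which allows a share of up to 0.860% if 3 counts are taken as the limit and of up to 1.09% by the Wilson interval, against 32 of 2421 (1.32%, 0.938 to 1.86). The Wilson intervals overlapped in both lists, but overlap does not decide whether the shares differ, and the difference was not tested. Together the members covered 82.7 bp per Mb in ESCs and 126 bp per Mb in NeuPCs, against 108 and 137 bp per Mb on the other autosomes.

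Both ESC members over 200 bp were both on chromosome 4, on the short arm. The longest, chr4:7865633-7865889, spanned 257 bp and also had the highest score of all ESC members, 103.37. The other, chr4:40297100-40297354, spanned 255 bp but had a score of only 52.25. The longest NeuPC members were chr13:24233664-24233854 (191 bp, score 55.97) and chr4:14614957-14615140 (184 bp, score 64.91). Among the pooled members length and score were weakly and inversely ordered, with a Spearman's rho of -0.22 in ESCs (n = 230) and -0.21 in NeuPCs (n = 349). On the other autosomes rho was -0.083 in ESCs and -0.17 in NeuPCs. The chromosomes were not alike. Chromosomes 4, 13 and 18 gave -0.33, -0.22 and -0.028 in ESCs, and -0.29, -0.0083 and -0.29 in NeuPCs. These values are a description over regions of 1 library each.

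Scores on these chromosomes were close to those elsewhere in the same list. All regions of both lists scored above 50. The median score was 54.31 in ESC members (53.49 to 55.36) and 54.3 on the other autosomes, and 59.05 in NeuPC members (58.59 to 59.51) against 59.38. Of the 230 ESC members 54 had a score of 60 or more (23.5%, Wilson interval 18.5 to 29.4) against 24.3% of ESC regions on the other autosomes, a difference of -0.852 percentage points (-6.25 to 5.33). In NeuPCs 141 of 349 members had such a score (40.4%, 35.4 to 45.6) against 44.5% elsewhere, a difference of -4.13 percentage points (-9.52 to 1.46). Neither interval excluded 0.

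The share differed among the chromosomes in the ESC list. On chromosome 13 it was 12 of 76 (15.8%, 9.27 to 25.6), on chromosome 4 it was 25 of 101 (24.8%, 17.4 to 34.0), and on chromosome 18 it was 17 of 53 (32.1%, 21.1 to 45.5). Each of the other autosomes lay between 18.3% and 32.5%, so chromosome 13 was below that range and chromosome 18 near its top. The intervals of all 3 overlapped, which does not decide whether the shares differ. A difference among the 3 chromosomes was not tested. In the NeuPC list chromosome 13 had instead the highest share of the 3 at 45.5%, with 37.5% on chromosome 4 and 40.2% on chromosome 18.

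**Figure D3:**
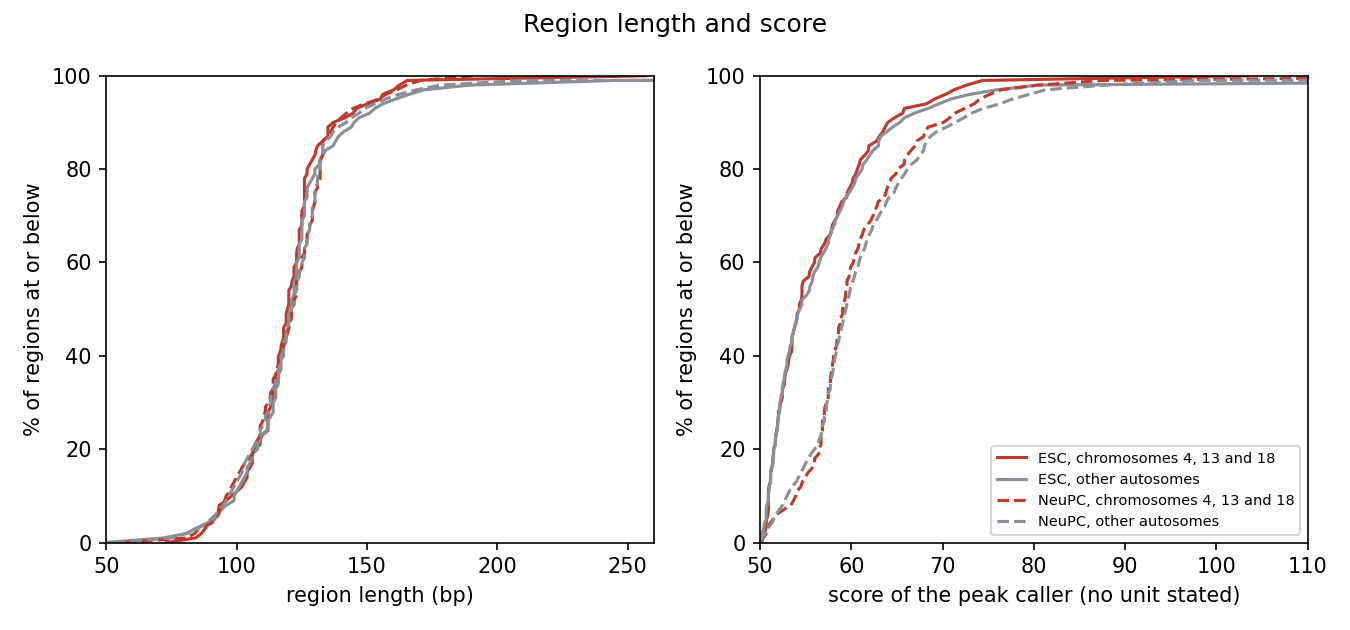
Percentage of regions (vertical axis) at or below a given length in bp (left) or score (right), for chromosomes 4, 13 and 18 (red) and the other autosomes (grey), with ESC as solid and NeuPC as dashed lines; the highest scores, and the longest regions of the other autosomes, lie beyond the axes. The red and grey lines of a list nearly coincide, with median lengths of 119.5 to 121 bp and, within each list, median scores that differ by less than 0.5.

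The highest scores were on chromosome 4. In ESCs chr4:7865633-7865889 (103.37) was followed on that chromosome by chr4:48233605-48233696, with a score of 85.9 over 92 bp. The region chr4:7865633-7865889 was the sole ESC member to score at least 100. That is a share of 0.435% (Wilson interval 0.0768 to 2.42), against 1.23% (0.823 to 1.84) on the other autosomes. In NeuPCs 2 of 349 members did (0.573%, 0.157 to 2.07), against 21 of 2421 (0.867%, 0.568 to 1.32). With so few such members, a difference in either list was not tested. The top ESC regions of chromosome 13 were chr13:106029768-106029840 (74.38) and chr13:46328818-46328939 (72.1), and those of chromosome 18 were chr18:47917840-47918005 (73.35) and chr18:73008688-73008843 (72.12). The last lies 5.07 Mb from the end of the chromosome and is thus close to the margin.

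In NeuPCs the highest score, 139, belonged to chr4:184602765-184602821, which at 57 bp was also the shortest member of that list. The next on that chromosome was chr4:39046183-39046351 (107.49). On chromosome 13 the top NeuPC regions were chr13:39344428-39344558 (93.7) and chr13:95360615-95360775 (84.7), and on chromosome 18 they were chr18:11767566-11767668 (76.82) and chr18:19695905-19696042 (74.09). Among these top regions of both lists, the distance to the nearest region of the other list was shortest for chr13:95360615-95360775, at 12.2 kb, followed by chr4:7865633-7865889 at 20.9 kb. That they lay apart was not particular to these top regions. No ESC member, and no ESC region on the other autosomes, overlapped a NeuPC region. Which genes lie at these regions was not analysed here, since no annotation in the build of the lists was used.

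Neighbouring ESC members were a median of 0.805 Mb apart (0.644 to 0.988), against 0.755 Mb (0.701 to 0.819) on the other autosomes. Neighbouring NeuPC members were 0.678 Mb apart (0.542 to 0.743), against 0.578 Mb (0.547 to 0.612). The intervals overlapped in both lists. The median again hid a difference among the chromosomes: in ESCs it was 1.04 Mb on chromosome 4 (0.805 to 1.59) but 0.490 Mb on chromosome 13 (0.298 to 0.816) and 0.636 Mb on chromosome 18 (0.372 to 1.25). In NeuPCs it was 0.770 Mb, 0.564 Mb and 0.459 Mb.

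On chromosome 13 in ESCs, short spacings stood beside very long ones. The standard deviation of its spacings divided by their mean was 1.59, above the range of 0.920 to 1.53 of the other autosomes, and it was 1.06 on chromosome 4 and 1.10 on chromosome 18. In NeuPCs chromosome 13 also had the highest value, 1.21, against 0.845 to 1.17 on the other autosomes. By this measure its regions were the most unevenly spread of the 22 autosomes in both lists. The margin was small, over chromosome 21 in ESCs and chromosome 14 in NeuPCs, and the measure has no interval here.

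Few members lay close to another member of their list. Within 10 kb there were 4 such pairs in ESCs. They were chr4:122317872-122317994 with chr4:122319515-122319678, chr13:104524682-104524798 with chr13:104527941-104528045, chr18:33461462-33461606 with chr18:33468262-33468378, and chr18:34337599-34337722 with chr18:34344354-34344483. Their scores were between 50.45 and 58.46, below 60 in all 8 regions. Most ESC members scored below 60, with 54 of 230 (23.5%) at 60 or more, so this does not set the pairs apart. In NeuPCs there was 1 pair, chr13:50373810-50373948 (66.99) and chr13:50373986-50374100 (60.97), which were 0.037 kb apart. Of all spacings between neighbours, this was 4 of 225 in ESCs, against 43 of 1831 on the other autosomes. In NeuPCs it was 1 of 344, against 36 of 2386. A difference was not tested.

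Large empty stretches, that is, sequenced stretches of at least 2 Mb without a region, took more of these chromosomes than of the other autosomes in ESCs. There were 58 on the 3 chromosomes, which together covered 219 Mb or 65.6% of the sequenced length, against 50.2% on the other autosomes. Each chromosome contributed: the share was 66.9% on chromosome 18, 65.3% on chromosome 13 and 65.3% on chromosome 4, the highest 3 values of the 22 autosomes. The other autosomes ranged from 28.6% to 64.8%, so the margin over the next was small. The order of the chromosomes depended on the length used. With stretches of at least 3 Mb the share was 43.0% against 28.4% on the other autosomes, and chromosomes 13, 4 and 18 had ranks 1, 2 and 4 from the highest. With stretches of at least 1 Mb it was 83.6% against 79.1%, and chromosomes 4, 18 and 13 had ranks 1, 4 and 16.

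A chromosome with fewer regions has more empty length, so the shares were set beside those of autosomes whose rate differed by at most 10%. Chromosome 13 had 65.3% against 40.5% to 54.8% on 5 such autosomes, and chromosome 18 had 66.9% against 49.1% to 54.8% on 4. No other autosome had a rate within 10% of that of chromosome 4. The size of this gap depended on the tolerance. With rates within 15%, chromosome 5, which has 0.733 regions per Mb and misses the 10% limit for chromosome 18 narrowly, raised the upper end of the range to 64.8% for both chromosomes. Both were still above every autosome in the wider set, 11 for chromosome 13 and 9 for chromosome 18, but by little, and the spread between those autosomes is the only measure of error.

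In NeuPCs the shares were closer to those of the other autosomes. There were 46 large empty stretches that covered 133 Mb or 39.8% of the length, against 36.0% on the other autosomes. Chromosome 4 had 41.3%, chromosome 13 had 40.8% and chromosome 18 had 34.5%, with ranks 4, 5 and 15 from the highest. Each lay inside the range of the autosomes of like rate, which was 36.7% to 46.3% for chromosome 4, 29.9% to 42.3% for chromosome 13 and 23.1% to 36.3% for chromosome 18. The difference between the lists in this respect was not tested.

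**Figure D4:**
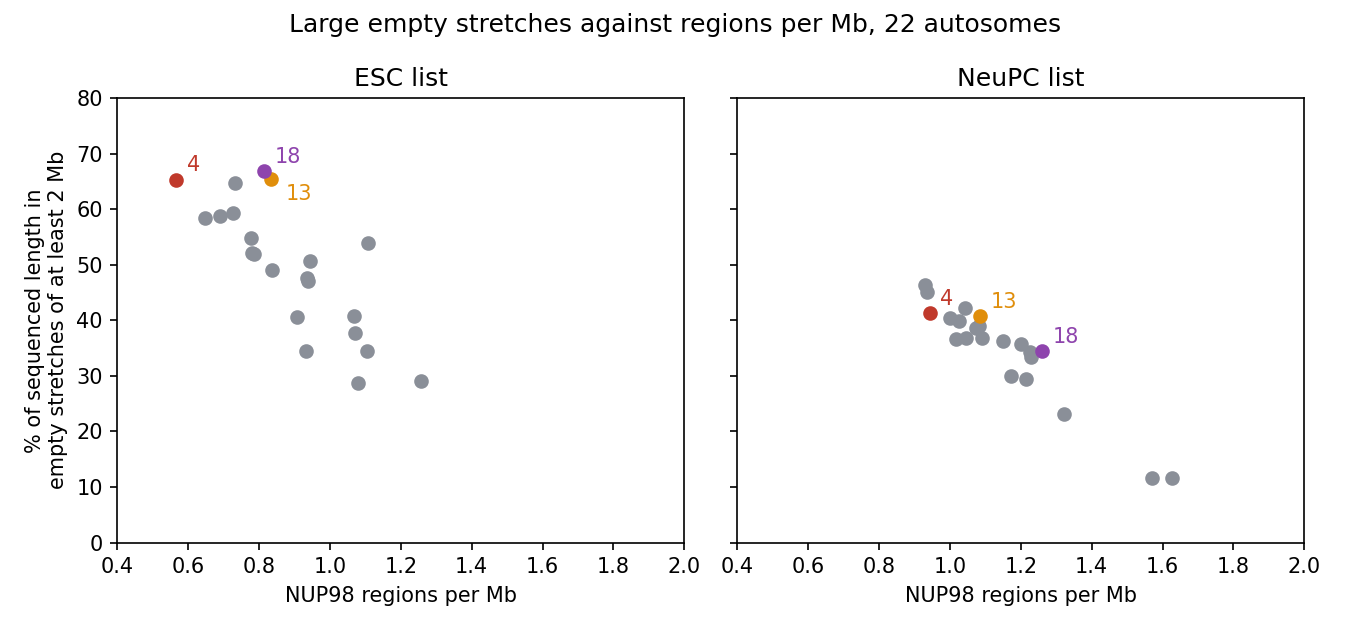
Percentage of the sequenced length in empty stretches of at least 2 Mb (vertical axis) against regions per Mb (horizontal axis) for the 22 autosomes, in ESCs (left) and NeuPCs (right), with 1 point per chromosome. In ESCs chromosomes 13 and 18 lie at 65.3% and 66.9%, with the nearest other autosome, chromosome 5, at 64.8% and a somewhat lower rate, and in NeuPCs the 3 labelled chromosomes lie among the others.

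The longest stretch without an ESC region was chr13:63631300-74587398, of 10.96 Mb, longer than the longest on any other autosome (9.69 Mb). It held 3 NeuPC regions. Directly before it lay another, chr13:54078717-63631193, of 9.55 Mb, with 7 NeuPC regions. A single ESC region, chr13:63631194-63631299 with a score of 57.9, separated them. Across the whole 20.5 Mb, picked for its lack of ESC regions, there was 1 ESC region against 10 NeuPC regions, which had a median score of 60.95 and scores between 53.92 and 73.75. NeuPC regions were also sparse there, with 0.488 per Mb against 1.09 per Mb on the chromosome as a whole.

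On chromosome 4 the longest stretch without an ESC region was chr4:134995147-143182716, of 8.19 Mb, with 10 NeuPC regions. On chromosome 18 it was chr18:64283898-70277092, of 5.99 Mb, with 5 NeuPC regions. A shorter one on its short arm, chr18:8045337-12552181, of 4.51 Mb, held 11 NeuPC regions, among them chr18:11767566-11767668, the NeuPC region with the highest score on that chromosome.

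The NeuPC list had shorter gaps. Its longest were chr13:80915747-88491590, of 7.58 Mb with 2 ESC regions, chr4:122678405-127200690, of 4.52 Mb with 2 ESC regions, and chr18:29192273-32499259, of 3.31 Mb with 3 ESC regions. On the other autosomes the longest stretch without a NeuPC region reached 7.65 Mb.

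Stretches of at least 2 Mb without a region in either list numbered 24 and covered 66.3 Mb, 19.8% of the length against 13.6% on the other autosomes. The share was 17.2% on chromosome 4, 15.7% on chromosome 18 and 27.8% on chromosome 13, the last just above the range of 0% to 27.2% of the other autosomes. The longest on each chromosome were chr4:67137904-71320921 (4.18 Mb), chr13:80915747-84925080 (4.01 Mb) and chr18:51333606-54323650 (2.99 Mb).

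The stretches empty of ESC regions were not empty of NeuPC regions. On the 3 chromosomes the large stretches without an ESC region held 223 NeuPC regions, or 1.02 per Mb, against 1.10 per Mb in the rest, a ratio of 0.927 (0.742 to 1.16). On the other autosomes the ratio was 0.856 (0.790 to 0.928), and the members' ratio divided by it was 1.08 (0.853 to 1.38). The converse was different in size. The stretches without a NeuPC region held 64 ESC regions, or 0.481 per Mb, against 0.825 per Mb outside, a ratio of 0.583 (0.430 to 0.783). On the other autosomes that ratio was 0.750 (0.678 to 0.829), and the quotient of 0.778 had an interval of 0.564 to 1.06, which includes 1.

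Chromosome 13 had the lowest of these values, 0.419 (0.229 to 0.728), with 17 ESC regions inside its NeuPC-empty stretches and 59 outside. Chromosome 18 had 0.557 (0.266 to 1.08) and chromosome 4 had 0.755 (0.486 to 1.15). With empty stretches of at least 1 Mb in place of 2 Mb, the ratio for the 3 chromosomes was 0.827 (0.624 to 1.10), so it depended on the length used.

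In windows of 10 Mb, NeuPC regions outnumbered ESC regions along most of these chromosomes. NeuPCs had more regions in 25 of 32 windows (78.1%), fewer in 6 and the same number in 1. On the other autosomes they had more in 143 of 200 windows (71.5%). The number of ESC regions per window ran from 1 to 19 with a median of 6.5, and that of NeuPC regions from 3 to 19 with a median of 10. Windows with at most 2 ESC regions made up 4 of 32 (12.5%), against 7 of 200 (3.5%) on the other autosomes, and no window of either kind had so few NeuPC regions.

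Along chromosome 13 the lists followed each other. From the centromere outward its 9 windows held 19, 12, 11, 7, 1, 2, 5, 4 and 13 ESC regions, and 14, 13, 19, 11, 5, 9, 3, 11 and 12 NeuPC regions. Both lists were dense toward the centromere and the far end and sparse between them, with r = 0.657 and rho = 0.770 over the 9 windows. On chromosome 4 the window counts showed little relation, with r = 0.069 and rho = 0.041 (n = 17). On chromosome 18 r was -0.22 and rho 0.031 (n = 6), too few windows to judge a relation. For all 32 windows r was 0.412, and for the 200 windows elsewhere 0.272. These values describe windows within 1 library per list that differ in base composition and gene content.

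Among the 32 windows the largest difference between the lists was in chr4:132660118-142660117, with 1 ESC region and 13 NeuPC regions. On chromosome 18 the windows chr18:5000001-15000000 and chr18:18460899-28460898, on either side of the centromere, each held 7 ESC and 17 NeuPC regions. The window richest in ESC regions went the other way: chr13:19020001-29020000, next to the centromere of chromosome 13, had 19 ESC and 14 NeuPC regions. These windows were singled out after their values were seen.

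**Figure D5:**
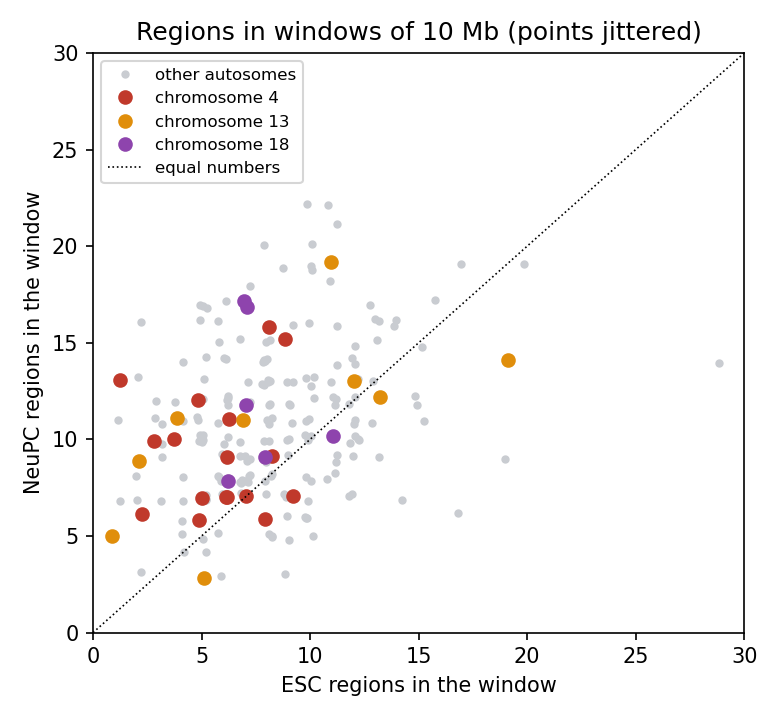
Number of NeuPC regions against number of ESC regions in windows of 10 Mb, on chromosomes 4 (red, 17 windows), 13 (orange, 9) and 18 (purple, 6) and on the other autosomes (grey, 200); points are shifted slightly so that equal counts can be seen apart. Of the 32 coloured windows 25 lie above the dotted line of equal numbers, and the red point at 1 ESC and 13 NeuPC regions is the window with the largest difference among them.

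No ESC member overlapped a NeuPC region, as was also so for all 1866 ESC regions on the other autosomes, and 0 members lay within 1 kb of one, against 2 elsewhere. The paper reported most, but not all, sites of each of these cell types as specific to it, so some were shared with another cell type. Whether shared regions had been left out of the lists was not tested, and the distances between the lists would depend on it. Within 10 kb there were 5 of 230 (2.17%), close to the 49 of 1866 (2.63%) elsewhere, and within 100 kb 45 of 230 (19.6%, 15.0 to 25.2), against 408 of 1866 (21.9%, 20.0 to 23.8) on the other autosomes, a difference of -2.30 percentage points (-7.30 to 3.60). The share was 15.8% on chromosome 4, 19.7% on chromosome 13 and 26.4% on chromosome 18. The median distance from an ESC member to the nearest NeuPC region was 0.296 Mb (0.246 to 0.379), against 0.294 Mb elsewhere. The interval of the difference included 0.

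Seen from the NeuPC list the members were farther apart. Of the 349 NeuPC members 12.6% (9.53 to 16.5) lay within 100 kb of an ESC region, against 17.3% (15.8 to 18.8) on the other autosomes, a difference of -4.66 percentage points (-8.11 to -0.50). Their median distance to the nearest ESC region was 0.567 Mb (0.452 to 0.688) against 0.368 Mb (0.346 to 0.396). The ESC rate, which is 0.801 of that elsewhere on these chromosomes, moves with this distance, and its part in the difference was not tested.

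The closest pair was on chromosome 4, where the ESC region chr4:152009637-152009790 (score 58.1) lay 2.65 kb from the NeuPC region chr4:152006882-152006983 (60.44). On chromosome 13, chr13:43486435-43486543 (54.48) in ESCs lay 3.80 kb from chr13:43482536-43482631 (66.15) in NeuPCs. The remaining pairs within 10 kb were chr4:127653160-127653285 with chr4:127646380-127646500 (6.66 kb), chr4:24220799-24220931 with chr4:24213616-24213725 (7.07 kb), and chr18:49221416-49221577 with chr18:49229003-49229074 (7.43 kb). The regions of these pairs had scores of 50.91 to 68.69, the highest being that of chr4:24220799-24220931 in ESCs. At lengths near 120 bp, even the closest regions were thus separated by many times their own length.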

How the data were processed

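The authors sequenced the libraries on the Illumina GAII. For mapping and for calling regions the methods describe Genomatix with its Audic-Claverie algorithm, whereas the headers of the ESC and NeuPC lists name MACS. The submitters' processing notes name hg19 and GRCh37. The deposited lists give the position of each region and the score of the peak caller, without read numbers. The IMR90 list, a table of adjusted p-values, was not used. Depth per library was not used, so list sizes were compared as ratios relative to the other autosomes.

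Both lists were read whole. Positions are counted from 1. Chromosome lengths and unsequenced stretches of at least 1 Mb (centromeres, heterochromatin, short arms) were the published hg19 values, and 0 regions of either list lay in them or past a chromosome end. Smaller assembly gaps were not removed. Rates were divided by the remaining sequenced length. Intervals were exact Poisson for rates, exact conditional binomial for ratios of rates, conditional odds ratios for ratios of ratios, Wilson for shares, Newcombe for differences of shares and order statistics for medians, all at 95%. Spacings were not counted across an unsequenced stretch. The regions named one by one were, on each chromosome, the 2 with the highest score in each list; the 2 longest of each list; pairs up to 10 kb apart; the 5 ESC members closest to a NeuPC region; and the longest empty stretches. The other regions and windows given were chosen after their values were seen.

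The members and lists were chosen with earlier results of these data known. The comparisons of rates inside and outside empty stretches, the autosomes of like rate with their tolerances, the ranks at other stretch lengths and the windows were added after the data were seen. Alternatives were other margins, whole length, joined close regions, the higher-scoring 50% of each list, other stretch lengths and distances, and leaving out each chromosome. Scripts were tested on simulated data. Python 3.11.15, numpy 2.4.6, scipy 1.17.1, pandas 2.3.3 and matplotlib 3.10.9 were used.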

Additional observations from a re-analysis of the deposited data

How the results depend on the processing

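Of 113 alternatives over 21 results, 92 left the value within its interval or the spread of the chromosomes and 21 moved it; 0 reversed a ratio whose interval excluded 1. With the higher-scoring 50% of each list, regions per Mb were 0.332 in ESCs and 0.478 in NeuPCs, the share of length in empty stretches was 88.9% and 71.4%, the share of ESC regions within 100 kb of a NeuPC region was 12.6%, and the ratio of NeuPC rates inside and outside ESC-empty stretches was 0.706; halving a list by construction lowers rates and lengthens gaps. Without chromosome 4 the ratio to the other autosomes was 0.962 in ESCs and turned from 0.937 to 1.04 (0.889 to 1.21) in NeuPCs, and the median spacing, 0.559 Mb in ESCs and 0.501 Mb in NeuPCs, fell below that of the other autosomes (0.755 and 0.578 Mb). With empty stretches of at least 1 Mb the empty share was 83.6% in ESCs and 71.0% in NeuPCs, with at least 3 Mb it was 43.0% and 16.4%, and the ratio of ESC rates inside and outside NeuPC-empty stretches at 1 Mb was 0.827. The highest empty share among autosomes of like ESC rate, 54.8% for chromosomes 13 and 18 at a tolerance of 10%, was 49.1% for chromosome 13 at 5% and 64.8% for both at 15% and at 20%. Near shares were 2.17% within 10 kb and 89.1% within 1 Mb. Why chromosome 4 differed was not tested. With 1 library per list, reproducibility cannot be judged, and differences in depth, caller threshold or mappability between lists or chromosomes were not tested. No paired analysis was possible because ESCs and NeuPCs had 1 NUP98 library each.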
